A study of Homo sapiens with 4 samples.

Results

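The AP-1 and immediate early genes were examined in TU-177, a laryngeal squamous cell carcinoma (LSCC) cell line, after knockdown of SKA3, a subunit of the spindle and kinetochore-associated complex that holds chromosomes to spindle microtubules in mitosis. The 10 genes were a named list: the FOS family genes FOS, FOSB, FOSL1 and FOSL2, the JUN family genes JUN, JUNB and JUND, and EGR1, IER2 and ATF3. All 10 were found among the 28729 genes measured. The study compared 2 RNA-seq libraries of negative control cells (NC) with 2 libraries of SKA3 knockdown cells (SKA3-KD). Both groups were TU-177 cultures that had received a lentivirus, carrying an shRNA against SKA3 in SKA3-KD and a control shRNA in NC, and both were selected with puromycin, added 48 h after transduction, so that the controls carry the virus and the selection too. The cells were pools of puromycin-resistant cells of a single line, and the labels do not say how many shRNA sequences were used. Nothing in the labels says that the 2 libraries of a group came from separate cultures, so the p-values measure the spread between these libraries, which may be technical.

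AP-1 is a dimeric transcription factor. A JUN family protein pairs through a leucine zipper with a FOS, ATF or another JUN family protein and binds short DNA elements in promoters and enhancers. FOS, JUN, EGR1, IER2 and ATF3 are classical immediate early genes, transcribed within minutes of a growth factor or stress signal from promoters that are already occupied, mostly through ERK, JNK and p38 kinases. FOSL1 and FOSL2 are induced later and are more stable, and JUND is present in resting cells. In squamous epithelium AP-1 is known for its part in keratinocyte growth and differentiation, and FOSL1 for its link to invasive squamous tumours.

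Levels are given as FPKM, fragment counts scaled to gene length and to library size, as deposited. One read on a gene of 1 kb was worth between 0.0836 and 0.111 FPKM in the 4 libraries. Their sizes, inferred here from the steps of the FPKM values, lay between 9015056 and 11966130 reads. Reads recovered on genes summed to more than the inferred size in each library (13324821 against 11966130 in NC 1), so sizes and reads are estimates. The targeted gene SKA3 stood at 9.40 and 9.64 FPKM in NC and at 3.77 and 4.12 FPKM in SKA3-KD, a log2 fold change of -1.09 ± 0.07 (SE) with an adjusted p of 0.00806 in limma. The adjusted p was 0.0660 without NC 1 and 0.0601 without NC 2. The lineage of the cells was checked with markers. Of 9 squamous epithelial markers measured, only KRT17, SFN and EPCAM had a mean of at least 1 FPKM, while the basal keratins KRT5 and KRT14 and the hyperproliferative keratin KRT6A did not exceed 0.103 FPKM in any library, TP63 did not exceed 0.580 FPKM and CDH1 did not exceed 0.447 FPKM. Immune markers summed to at most 1.38 FPKM over 4 genes, with LYZ at 0 in all 4 libraries, and endothelial markers summed to at most 0.0968 FPKM over 2 genes. Some of these markers moved with the groups: KRT17 fell (log2 fold change -0.53, adjusted p = 0.0396), as did the fibroblast marker DCN (log2 fold change -1.46, adjusted p = 0.00650). The 6 fibroblast markers measured summed to 15.4 and 15.8 FPKM in NC and to 8.86 and 9.56 FPKM in SKA3-KD, with COL1A2 at or near 0, and DCN made up most of that difference. The fibroblast marker PDGFRB lay the other way, at 2.88 and 2.46 FPKM in NC and 3.19 and 4.13 FPKM in SKA3-KD, and was not called (adjusted p = 0.166). In bulk RNA, fewer cells of a type and less RNA per cell cannot be told apart, and the part of these markers in the results below was not tested.

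The promoters of these genes are shown first, since they carry the elements through which the family is switched on and through which some members feed back on their own genes. RefSeq (GRCh38.p14) held promoter windows for 9 of the 10 genes, with 2 windows for ATF3, and the 250 bases before each start site were searched on both strands. FOSL1 had no entry. The JUN and ATF3 windows hold the sequence TGACATCA, which is found in 2.37% of all 35116 windows. It lies 67 to 60 bases before the start of JUN and 123 to 116 bases before the upstream start of ATF3. Each is shown with its neighbouring bases, the element in capitals, for JUN at chr1:58784096-58784125 on the minus strand and for ATF3 at chr1:212565273-212565302 on the plus strand. In GENCODE 29 the JUN stretch lies inside the annotated JUN exon, which begins upstream of the RefSeq start, and the ATF3 stretch lies before the annotated gene.
JUN: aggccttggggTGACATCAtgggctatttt
ATF3: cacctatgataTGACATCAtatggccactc

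The EGR1 window carries a pair of CArG boxes, the binding sequence of serum response factor, at 105 to 96 and at 83 to 74 bases before the start. A CArG box was found in 1.16% of all windows and in no other window of the list. The same EGR1 window holds TGACGT, the core of the cAMP response element, on the reverse strand at 136 to 131 and at 67 to 62 bases before the start. The JUND window is shown beside it because it is the only 1 of the list with the full palindrome TGACGTCA, at 200 to 193 bases before the start. That palindrome was present in 1.65% of all windows and contains TGACGT on each strand. A further TGACGT lies on the reverse strand of JUND at 87 to 82 bases before the start. The capitals mark these elements. The EGR1 window is chr5:138465229-138465478 on the plus strand and the JUND window is chr19:18281623-18281872 on the minus strand, and neither overlaps an exon of GENCODE 29.
EGR1: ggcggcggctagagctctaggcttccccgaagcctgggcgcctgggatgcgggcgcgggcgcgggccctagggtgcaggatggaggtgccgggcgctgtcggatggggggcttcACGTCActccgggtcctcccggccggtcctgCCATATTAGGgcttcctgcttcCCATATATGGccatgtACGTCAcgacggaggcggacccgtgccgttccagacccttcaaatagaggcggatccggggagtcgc
JUND: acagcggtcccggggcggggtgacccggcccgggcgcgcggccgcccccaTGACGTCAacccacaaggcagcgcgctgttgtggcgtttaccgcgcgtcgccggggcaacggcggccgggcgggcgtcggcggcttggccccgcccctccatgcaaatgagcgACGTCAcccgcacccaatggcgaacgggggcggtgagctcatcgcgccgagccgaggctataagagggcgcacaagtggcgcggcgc

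TGACGT was present in the windows of 5 genes, FOS, FOSB, FOSL2, EGR1 and JUND, against 7.10% of all windows. The sequence TATAAA was present in those of FOS, FOSB, JUNB and ATF3, against 10.7% of all windows. It lies 33 to 28, 30 to 25 and 31 to 26 bases before the start of FOS, FOSB and JUNB. In ATF3 it lies 230 to 225 bases before the downstream start, and not in the upstream window. The downstream window lies inside the annotated ATF3 gene, and whether it acts as a promoter was not tested. The consensus AP-1 site TGAGTCA (4.20% of all windows) and the EGR site GCGTGGGCG (0.720% of all windows) were in none of the 9 genes' windows. These matches describe letters in a short window, and no binding was measured.

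Across all genes, 12645 with a mean of at least 1 FPKM were tested with limma on log2(FPKM + 1), and 772 fell and 779 rose in SKA3-KD at an adjusted p under 0.05, which is 6.11% and 6.16% of those tested, or 12.3% in either direction. Of the AP-1 and immediate early genes, 9 of 10 reached that level, and FOSB did not. ATF3 fell, FOSL1 rose, and the other 7 tested did not pass the threshold. Thus 1 of 9 fell and 1 of 9 rose, and with so few genes these counts are not read against the background shares. The median log2 fold change of the 9 was 0.12, with 4 below 0 and 5 above 0, beside a median of 0.01 over all genes tested. The NC and SKA3-KD libraries did not overlap for 7 of the 9 (3 lower and 4 higher in SKA3-KD), which is common in these data, as 61.6% of all genes tested had separate groups (29.2% lower and 32.3% higher). All changes below are SKA3-KD minus NC on the log2(FPKM + 1) scale with the standard error, and adjusted p-values are those of limma over all genes tested.

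**Figure D1:**
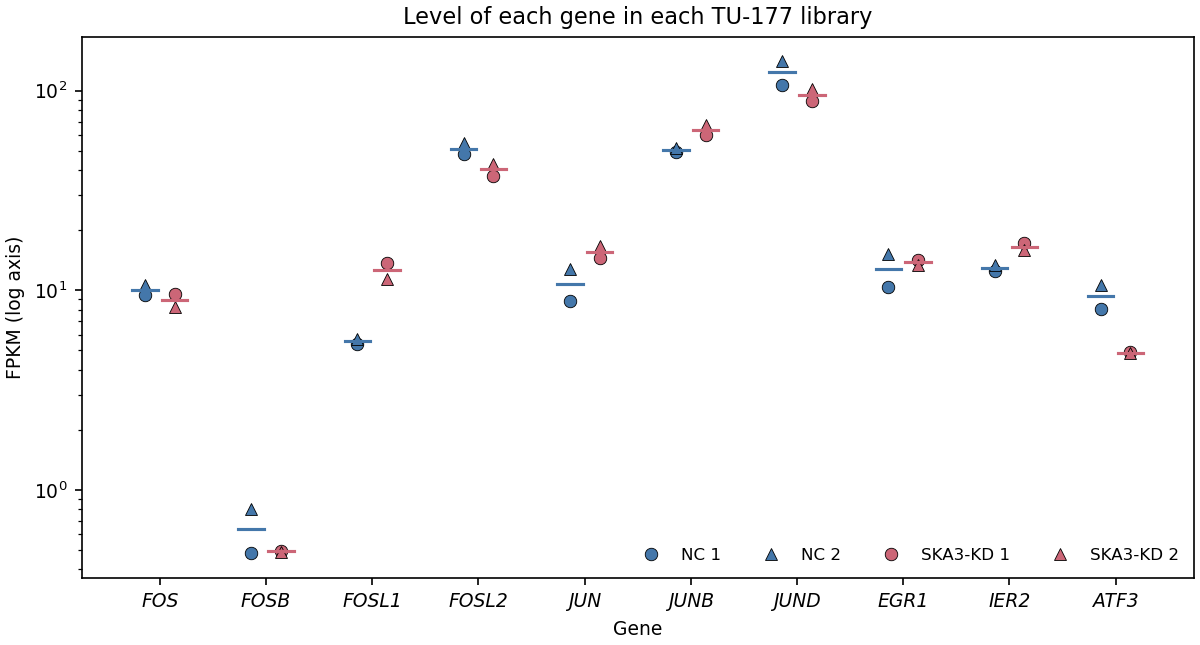
FPKM on a log axis of each of the 10 genes in the NC libraries (blue) and SKA3-KD libraries (red), with circles for replicate 1, triangles for replicate 2 and bars for the group means of 2 libraries. FOSL1 stands at 5.40 and 5.70 FPKM in NC and at 13.7 and 11.4 FPKM in SKA3-KD, ATF3 moves the other way, and JUND is the highest gene in each library.

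The FOS family supplies the partner that cannot pair with itself. FOSL1, the gene of FRA-1 (ENSG00000175592, chr11:65892049-65900573 in GRCh38), stood at 5.40 FPKM in NC 1 and 5.70 FPKM in NC 2, against 13.7 FPKM in SKA3-KD 1 and 11.4 FPKM in SKA3-KD 2. Both knockdown libraries were above both controls, and SKA3-KD 1 was the higher of the pair. The group means were 5.55 ± 0.21 and 12.6 ± 1.65 FPKM (SD, n = 2 each), a ratio of 2.27, and the log2 fold change was 1.05 ± 0.10 with a 95% interval from 0.78 to 1.31 and an adjusted p of 0.0115. Between 97 and 264 reads lay behind each of these values. Changes of filter, variance trend, replicate block or threshold alone leave the estimate as it is. The rise kept its direction and a size between 0.92 and 1.17 in all 14 alternative settings, these included. It missed the threshold without NC 1 (adjusted p = 0.0745), without NC 2 (0.0641) and without SKA3-KD 1 (0.0524), and when no filter on low FPKM was used (0.0548).

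FOSL2, the gene of FRA-2 and the most abundant of the family, was at 47.9 and 54.5 FPKM in NC and at 37.6 and 43.0 FPKM in SKA3-KD. Its groups were separate, lower in SKA3-KD, with a log2 fold change of -0.34 ± 0.10 that did not pass the threshold (adjusted p = 0.0881). FOS, the founding member whose mRNA turns over rapidly, was at 9.42 and 10.6 FPKM in NC and at 9.53 and 8.27 FPKM in SKA3-KD. The groups overlapped, and the log2 fold change of -0.16 had a 95% interval from -0.41 to 0.10 (adjusted p = 0.342). FOSB was near the lower end of what these libraries measure, at 0.482 and 0.799 FPKM in NC and 0.495 and 0.489 FPKM in SKA3-KD, from 28 to 40 reads. It was left out of the test by the filter, and with no filter its log2 fold change was -0.13 (adjusted p = 0.694).

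The shares that FOSL1 and FOSL2 took of the family did not overlap between the groups. The 4 FOS family genes summed to 63.2 and 71.6 FPKM in NC and to 61.4 and 63.2 FPKM in SKA3-KD. FOSL1 made up 8.54% and 7.96% of that sum in NC and 22.4% and 18.1% in SKA3-KD, a difference of 11.98 percentage points. FOSL2 made up 75.8% and 76.1% in NC and 61.3% and 68.1% in SKA3-KD, a difference of -11.3 percentage points. The share of FOS overlapped between the groups, at 14.9% and 14.8% against 15.5% and 13.1%. An exact two-sided permutation test gave p = 0.333 for the FOSL1 share and for the FOSL2 share, which is the smallest p that 2 libraries against 2 allow.

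**Figure D2:**
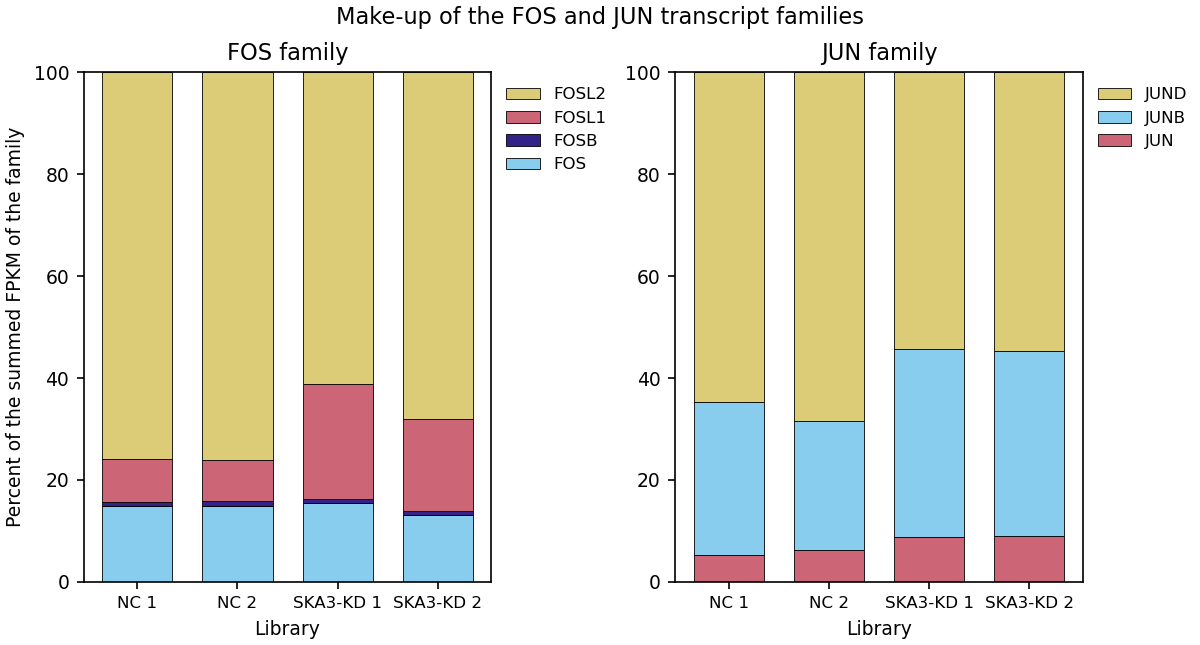
Percent of the summed FPKM of the FOS family (left, FOS, FOSB, FOSL1 and FOSL2) and of the JUN family (right, JUN, JUNB and JUND) taken by each gene in each of the 4 libraries. The FOSL1 share is 8.54% and 7.96% in the NC bars and 22.4% and 18.1% in the SKA3-KD bars, and JUND takes less of the JUN family in each SKA3-KD library than in either NC library.

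The JUN family proteins can pair with each other as well as with the FOS family. JUND, which is known to slow growth in several cell types, was the highest of all 10 genes in each library, at 107 and 140 FPKM in NC and 88.5 and 102 FPKM in SKA3-KD. The groups were separate by a narrow margin and the 2 NC libraries lay far apart, so that the log2 fold change of -0.36 ± 0.15 did not pass the threshold (adjusted p = 0.170). It was -0.56 without NC 1 and -0.17 without NC 2. JUNB was at 49.3 and 51.9 FPKM in NC and at 59.7 and 67.3 FPKM in SKA3-KD, a log2 fold change of 0.32 ± 0.08 (adjusted p = 0.0607). JUN, the strongest activator of the family, was at 8.83 and 12.7 FPKM in NC and at 14.5 and 16.6 FPKM in SKA3-KD. Its libraries were separate and higher in SKA3-KD, but the control libraries again differed from each other, and the log2 fold change of 0.51 ± 0.17 had an adjusted p of 0.124. It was 0.27 without NC 1 and 0.75 without NC 2.

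JUN took 5.36% and 6.21% of the summed JUN family FPKM in NC and 8.89% and 8.95% in SKA3-KD, a difference of 3.14 percentage points. JUNB took 29.9% and 25.3% in NC and 36.7% and 36.3% in SKA3-KD. JUND took 64.7% and 68.5% in NC and 54.4% and 54.8% in SKA3-KD. None of the 3 shares overlapped between the groups, each with the smallest exact p of 0.333. The shares of a family depend on each other. How often shares separate in other gene families was not counted, here or for the FOS family. The summed level of the family did overlap, at 165 and 205 FPKM in NC and 163 and 186 FPKM in SKA3-KD. A share is a ratio within a library and shows unequal change of its parts, not which of them changed.

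Of the genes outside these families, ATF3 had the only called fall. ATF3, a stress-induced bZIP factor that acts as a repressor when paired with itself (ENSG00000162772, chr1:212565334-212620777 in GRCh38), stood at 8.06 FPKM in NC 1 and 10.6 FPKM in NC 2, against 4.88 FPKM in SKA3-KD 1 and 4.85 FPKM in SKA3-KD 2. The SKA3-KD libraries were nearly equal and both lay below the lower control. The means were 9.32 ± 1.79 and 4.87 ± 0.02 FPKM (SD, n = 2 each), a ratio of 0.522, and the log2 fold change was -0.80 ± 0.13 with a 95% interval from -1.14 to -0.47 and an adjusted p of 0.0265. Between 199 and 386 reads lay behind each value, as recovered with a fitted gene length. The fall kept its direction in all 14 alternative settings, between -0.98 and -0.63, including those of filter, trend, block or threshold that cannot move it. The adjusted p rose to 0.0660 without NC 1, 0.0688 without NC 2, 0.0972 without SKA3-KD 1 and 0.0905 without SKA3-KD 2, to 0.0954 with no filter and to 0.0529 without a trend in the variance.

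IER2, a small nuclear protein induced by serum and growth factors, was at 12.5 and 13.4 FPKM in NC and at 17.2 and 15.8 FPKM in SKA3-KD. Its log2 fold change of 0.33 ± 0.08 came closest to the threshold among the genes that did not pass it (adjusted p = 0.0533). EGR1, a zinc finger factor driven by ERK through serum response factor, was at 10.4 and 15.3 FPKM in NC and at 14.1 and 13.5 FPKM in SKA3-KD. Both SKA3-KD libraries lay between the controls, and the log2 fold change was 0.12 with a 95% interval from -0.33 to 0.57 (adjusted p = 0.678). Without NC 1 its sign turned, to -0.14 (adjusted p = 0.362).

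More genes were called in another fit. When whole reads were recovered from the FPKM values and tested with limma voom, which weights each value by its read depth, 3 of the 9 fell (ATF3, FOSL2 and JUND) and 4 rose (FOSL1, JUN, JUNB and IER2), with voom-adjusted p-values from 1.31e-05 for FOSL1 to 0.0116 for IER2. In the same fit 12% of all genes tested fell and 13.4% rose. FOS (adjusted p = 0.308) and EGR1 (adjusted p = 0.425) did not pass there either. The reads of JUN, JUNB, JUND and ATF3 rest on a gene length fitted to the values in place of the annotated one, and those of JUN stay undetermined up to a common whole factor. This bears on the weights in that fit and on family shares taken from reads, and not on the FPKM. FOSB, FOSL2, IER2 and JUNB overlap a gene annotated on the opposite strand (ERCC1, FLJ31356, AC011446.2 and HOOK2), FOSL2 also shares 296 bases with AC104695.3 on its own strand, and how the counting treated strand is not given in the sources used here.

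**Figure D3:**
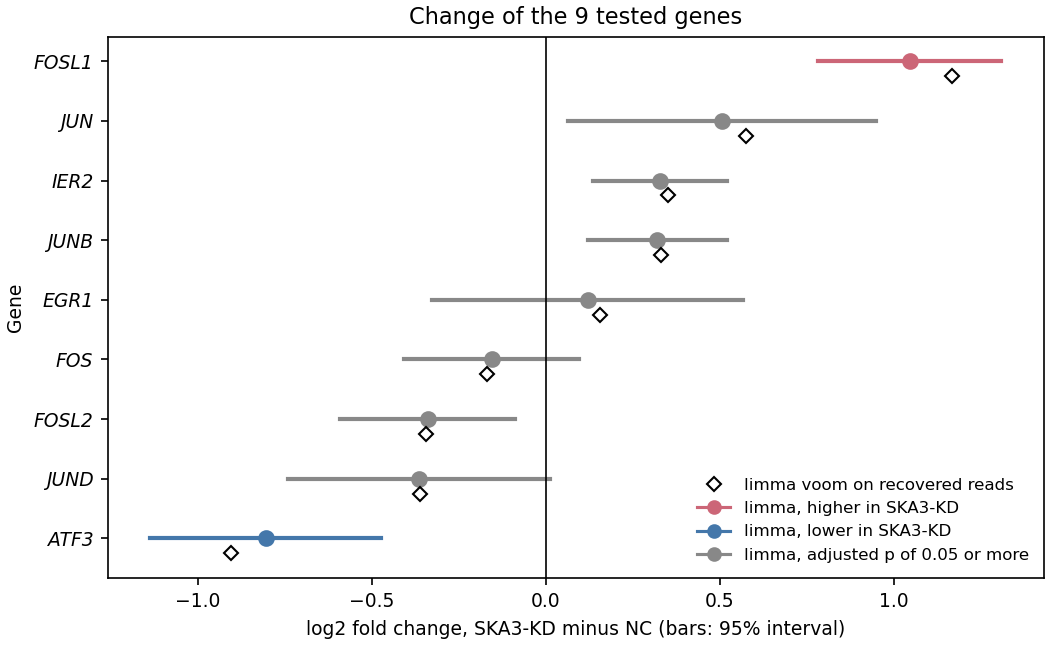
log2 fold change, SKA3-KD minus NC, of the 9 tested genes on log2(FPKM + 1) with its 95% interval (circles and bars, red for called higher, blue for called lower, grey for not called), and the limma voom value on recovered reads (open diamonds). FOSL1 at 1.05 and ATF3 at -0.80 are the called genes, and the intervals of EGR1, FOS and JUND include 0.

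The order of the levels, per length and within each group, was the same at its ends and differed in the middle. In NC the order was JUND, FOSL2, JUNB, IER2, EGR1, JUN, FOS, ATF3, FOSL1 and FOSB. FOSL2 and JUNB did not differ beyond the spread of their libraries, nor did the neighbours from IER2 to ATF3. In SKA3-KD the order was JUND, JUNB, FOSL2, IER2, JUN, EGR1, FOSL1, FOS, ATF3 and FOSB, where IER2 and JUN overlapped, as did EGR1 and FOSL1. FOSL1 was thus below ATF3 and FOS in both control libraries and above them in both knockdown libraries.

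No gene of a separate list of further partners and related factors passed the threshold in limma. Of 13 AP-1 partner and related bZIP genes, 11 were measured and 8 tested, with 3 below 0 and 5 above 0 and a median of 0.06. At an unadjusted p under 0.05 there were 3, all small MAF proteins, which lack an activation domain. With limma voom 1 gene of the list was called lower and 2 higher, beside 12% and 13.4% of all genes tested. MAFK was at 18.2 and 21.2 FPKM in NC and 10.1 and 14.8 FPKM in SKA3-KD (limma adjusted p = 0.0833). MAFF was at 5.50 and 5.74 FPKM in NC and 6.96 and 7.75 FPKM in SKA3-KD (adjusted p = 0.0591), and MAFG was at 11.05 and 13.2 FPKM in NC and at 14.5 FPKM in both SKA3-KD libraries (adjusted p = 0.1596). JDP2, which pairs with JUN proteins and represses AP-1 elements, stayed between 5.64 and 5.78 FPKM in all 4 libraries. BATF and MAF were not analysed here.

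Other immediate early genes were divided between the directions, where 6.11% of all genes tested fell and 6.16% rose. Of 32 genes, 28 were tested, 3 fell and 4 rose, with a median of 0.01. The 28 include KLF2, below 1 FPKM in both NC libraries, which passed the filter only through SKA3-KD and was not called. CCN1, a matricellular protein also known as CYR61, had the largest rise, from 40.8 and 43.7 FPKM in NC to 83.7 and 90.4 FPKM in SKA3-KD (log2 fold change 1.02 ± 0.07, adjusted p = 0.00806). GADD45B, a growth arrest and stress gene (log2 fold change 0.51), SRF, the serum response factor itself (0.42), and KLF6, a zinc finger factor (0.39), also rose. IER5L (-0.67), a relative of IER2, and NR4A3 (-0.48), an orphan nuclear receptor, were among the genes that fell.

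The kinases and factors upstream gave 4 calls, where 6.11% of all genes tested fell and 6.16% rose. Of 22 ERK, JNK and p38 kinases and their upstream and downstream kinases, 20 were tested, 2 fell and 1 rose (median 0.05). RPS6KA3, the gene of the ERK-activated kinase RSK2, fell from 22.6 and 20.7 FPKM in NC to 9.42 and 9.36 FPKM in SKA3-KD (log2 fold change -1.12 ± 0.07, adjusted p = 0.00709). MAP2K6 (log2 fold change -0.47) fell and MAP2K3 (0.49) rose, and both encode kinases that activate p38. MAPK3, the gene of the kinase ERK1, did not pass the threshold (log2 fold change 0.11, adjusted p = 0.302). Of 15 regulators of immediate early promoters, 14 were tested (median 0.05), and ELK4, a partner of serum response factor at the CArG box, was the only 1 called, from 8.32 and 8.38 FPKM in NC to 5.03 and 5.66 FPKM in SKA3-KD (log2 fold change -0.56 ± 0.08, adjusted p = 0.0213).

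Of 13 ERK output and feedback genes, known as readouts of ERK signalling, 8 were tested, and 4 rose and none fell in limma, where 6.16% of all genes tested rose. With voom 7 rose and none fell, where 13.4% of all genes tested rose. The median log2 fold change was 0.59. SPRED1 and PHLDA1, below 1 FPKM in both NC libraries, passed the filter only through SKA3-KD, where they were high, so these counts and the median are not a measure of the list as a whole. The ETS factor ETV4 went from 5.00 and 6.06 FPKM in NC to 15.1 and 14.0 FPKM in SKA3-KD (log2 fold change 1.25 ± 0.10, adjusted p = 0.00891). The ERK phosphatase gene DUSP4 (log2 fold change 0.65) and the pathway inhibitors SPRED2 (0.61) and SPRY2 (0.58) also rose. The other 4 tested, SPRED1, ETV1, PHLDA1 and DUSP5, had log2 fold changes of 0.60, 0.53, 0.39 and 0.22 and adjusted p-values between 0.0541 and 0.262. Of the 5 not tested, DUSP6, SPRY4 and ETV5 had separate groups with SKA3-KD higher, and SPRY1 and SPRED3 overlapped. Separate groups with SKA3-KD higher were found for 32.3% of all genes tested. DUSP6 rested on 10 to 31 reads a library, SPRY4 on 6 to 28 and ETV5 on 17 to 101.

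Textbook targets of AP-1 were divided, where 6.11% of all genes tested fell and 6.16% rose. Of 28 genes, 24 were measured and 13 tested, 2 fell and 1 rose, with 8 below 0, 5 above 0 and a median of -0.16. The 2 that fell were PTGS2, the inducible cyclooxygenase, from 8.64 and 9.49 FPKM in NC to 3.60 and 4.28 FPKM in SKA3-KD (log2 fold change -1.03 ± 0.10, adjusted p = 0.0114), and HMOX1, the inducible haem oxygenase, from 6.74 and 8.81 FPKM to 1.88 and 3.17 FPKM (log2 fold change -1.33 ± 0.21, adjusted p = 0.0262). CCND1, the gene of cyclin D1, rose from 18.1 and 18.8 FPKM to 31.4 and 28.5 FPKM (log2 fold change 0.66 ± 0.07, adjusted p = 0.0136). The collagenase and stromelysin genes MMP1, MMP3, MMP9 and MMP13, among the first AP-1 targets described, did not exceed 0.322 FPKM in any library and were not tested.

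Heat shock genes, which like ATF3 respond to protein stress, were listed for comparison. Of 10 genes, all tested, 8 rose and 1 fell, with a median of 0.46, where 6.16% of all genes tested rose and 6.11% fell. HSP90AA1 rose from 517 and 473 FPKM in NC to 802 and 777 FPKM in SKA3-KD (log2 fold change 0.67 ± 0.06, adjusted p = 0.0113), and DNAJB1 from 42.0 and 44.1 FPKM to 65.6 and 63.5 FPKM (0.57 ± 0.06, adjusted p = 0.0125). HSPA8, HSPH1, BAG3, HSPE1, HSPA1A and HSPA1B also rose, with log2 fold changes between 0.31 and 0.69. HSPA1A and HSPA1B are near-identical copies whose reads the counting could have split. The mitochondrial chaperonin HSPD1 fell (log2 fold change -0.50, adjusted p = 0.0249), and HSPB1 (0.31, adjusted p = 0.0528) was not called.

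Over these 7 lists together 9 genes fell and 18 rose in limma, where 6.11% of all genes tested fell and 6.16% rose. The calls depended on having all 4 libraries: without NC 1 or without NC 2 no list gene was called by limma (40 and 49 at an unadjusted p under 0.05), without SKA3-KD 1 there was 1 call in each direction, and without SKA3-KD 2 there were 3 in each direction. Over all genes the same omissions left 0, 0, 53 and 135 genes lower and 0, 0, 13 and 46 genes higher, with 3124 and 3352 at an unadjusted p under 0.05 in the omissions that left 0. The lists were written with earlier results of these data known, so their counts are descriptions.

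**Figure D4:**
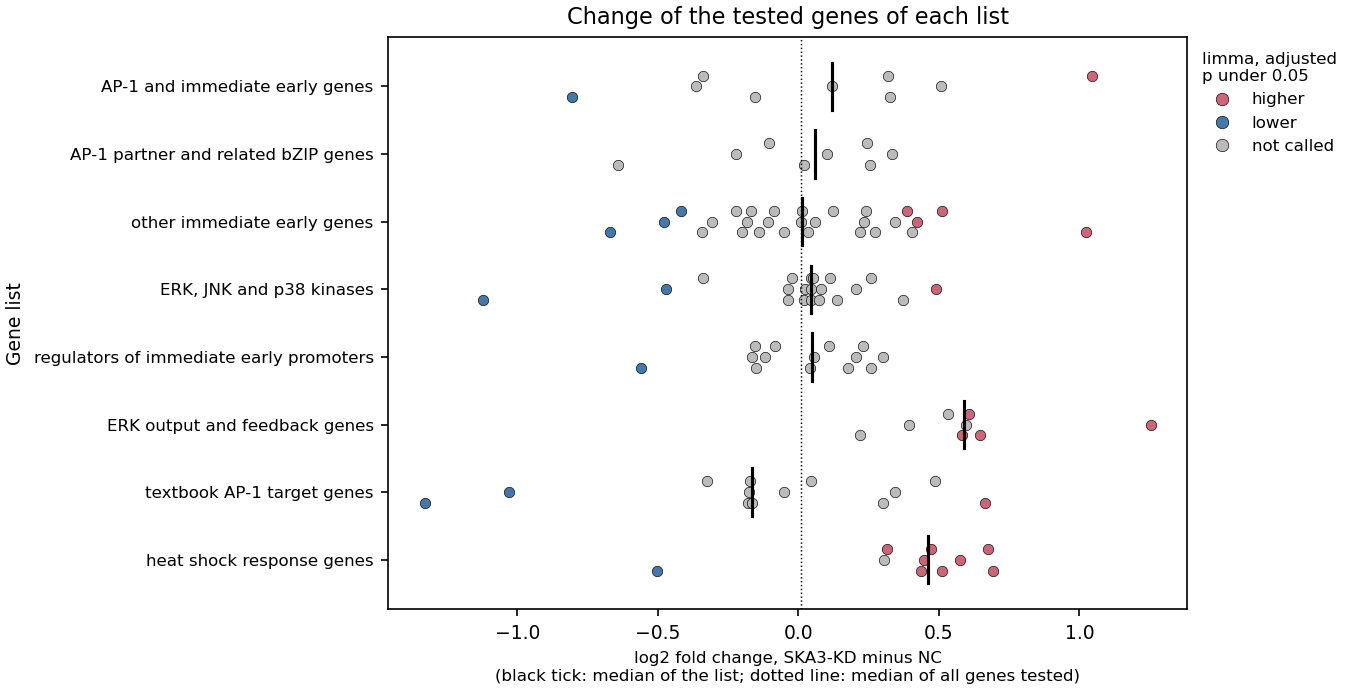
log2 fold change, SKA3-KD minus NC, of each tested gene (points, red for called higher, blue for called lower, grey for not called) in the AP-1 and immediate early genes and 7 other lists, with the median of each list (black tick) and of all genes tested (dotted line, 0.01). The points of the AP-1 and immediate early genes lie on both sides of 0, with a median of 0.12. Those of the ERK output and feedback genes lie above 0, and they include SPRED1 and PHLDA1, which passed the filter only through SKA3-KD.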

How the data were processed

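RNA of 4 TU-177 samples, 2 NC and 2 SKA3-KD by their labels, was sequenced for gene expression. The authors deposited FPKM, scaled by them to the length of each gene and the size of each library, in a table of 28729 Ensembl identifiers. Their processing notes name HISAT2, Bowtie2 2.2.8, StringTie 1.3.1, Cuffdiff 2.1.1 and the build hg19, and strand handling is not given in the sources used here. Symbols, positions and exon lengths came from GENCODE 29 (GRCh38), which covered 27199 identifiers. Positions are therefore GRCh38 and not the authors' build. Promoter windows came from RefSeq (GRCh38.p14).

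SKA3-KD was compared with NC by limma 3.58.1 (R 4.3.3; lmFit, eBayes with a variance trend) on log2(FPKM + 1), a pseudocount of 1, for genes with a mean of at least 1 FPKM, with Benjamini-Hochberg adjustment over all genes tested and a threshold of 0.05. This scale understates changes of low genes. No test was stated for these libraries in the study's methods. Library sizes were inferred from the steps of the FPKM values. Whole reads of each gene were estimated from the same steps (68.1% of genes above 0 at the annotated length, 31.7% at a fitted length, 0.121% rounded, tolerance 0.01 reads). They served only as an alternative, with limma voom. Their sum over genes exceeded the inferred size in each library. Family shares were compared by exact permutation tests over libraries. Replicate libraries correlated at 0.983 (NC) and 0.984 (SKA3-KD) on the log2 scale and differed by more than sampling noise (chi-square per degree of freedom 4.03 and 3.94), so the libraries of a group were not treated as copies. This does not show that they are independent cultures. The functions were tested on simulated data with independent libraries, the same spread parameter for every gene and few changed genes. There limma on log2(FPKM + 1) made a larger share of false calls than its threshold allows, and voom stayed close to it. These settings differ from the data, so the simulation does not show how many false calls either fit makes here. Adjusted p-values near the threshold are to be read with caution.

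The alternatives used no filter, a mean of at least 5 FPKM, a pseudocount of 0.1, median-of-ratios scaling, quantile normalization, no variance trend, the replicate number as a block, an adjusted p under 0.1, a fold of at least 1.5, voom, and each library left out. Members and lists were chosen with earlier results of these data known, and promoter motifs with the sequences in view. Named genes are the 10 members, SKA3, listed genes past the threshold, those a small count refers to and the cell type markers. Others named with values (MAPK3, JDP2, HSPB1 and MMP genes) were chosen after their values were seen. The results of 2 listed genes are not reported here.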

Additional observations from a re-analysis of the deposited data

How the results depend on the processing

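A change of filter, variance trend, block or threshold alone cannot move a log2 fold change. All 9 tested genes kept their direction in every setting that used all 4 libraries. When each library was left out, 8 of them also did. The exception was EGR1, between -0.14 (without NC 1) and 0.38 with a library left out, against 0.12. The number of the 10 genes called lower and higher was 1 and 1 as reported and with a pseudocount of 0.1, median-of-ratios scaling, quantile normalization or a fold of at least 1.5. It was 0 and 0 in limma with no filter (5 at an unadjusted p under 0.05), 2 and 3 with a mean of at least 5 FPKM, 0 and 1 without a variance trend, 2 and 3 at an adjusted p under 0.1, and 3 and 4 with voom. Leaving out a library gave 0 lower and between 0 and 1 higher, with 5 or 6 at an unadjusted p under 0.05. Calls over all genes also changed with the setting, to 887 lower and 993 higher with a mean of at least 5 FPKM, where fewer genes were tested. They are given below for most other settings, and the counts of the 10 genes are not read as a result about them. The cause of these differences was not tested.

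All genes called lower and higher, 772 and 779, went to 81 and 48 with no filter, 381 and 312 without a trend, 1356 and 1442 at an adjusted p under 0.1, 329 and 198 with a fold of at least 1.5, and 1516 and 1693 with voom, and to between 0 and 135 lower and between 0 and 46 higher with a library left out. Listed genes called lower and higher, 9 and 18, went to 1 and 1 with no filter, to 4 and 7 with a fold of at least 1.5, to 3 lower without a trend, to 32 higher with voom, and to between 0 and 3 in each direction with a library left out. SKA3 lay between -1.14 and -1.04 with a library left out. In recovered reads, which are not per length, the FOSL1 share differed by 4.41 and the JUN share by 5.07 percentage points. The reads of JUN are undetermined up to a common whole factor, so the size of its difference in reads is not fixed.

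Replicate numbers were shared between the groups but not tied to a culture or day. Same-numbered libraries deviated together with a correlation of 0.10, so the numbers were not used as a pairing. With the replicate block, 3 of the 10 genes were lower (ATF3, FOSL2, JUND) and 3 higher (FOSL1, JUN, JUNB), with 965 and 1002 of all genes and 12 and 19 listed genes. The FOSL1 and JUN share differences, 11.98 and 3.14 percentage points, cannot change with this block, because each group holds each replicate number once.

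With 2 libraries a group, an exact test cannot go below p = 0.333. Leaving out a library leaves a group with a lone sample, assumed to vary like the other group. FOSB, at 28 to 40 reads, is the gene that depth limits most.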
